A study of Mus musculus with 6 samples.

Results

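Splicing factors and heterogeneous nuclear ribonucleoproteins (hnRNPs) were examined in hematopoietic stem cells (HSCs) of the Lower-SP and the Upper-SP fraction of mouse bone marrow. The members were the array probe sets annotated to 1 gene whose symbol begins with Srsf, Hnrn, Sf3, Snrp, Prpf, U2af or Srek1, or with Rbm and a number. The symbol alone made a probe set a member, whatever its values. Of 45037 probe sets on the array, 276 of 100 genes met the rule. Of these, 219 probe sets of 88 genes lay above a log2 value of 4 on at least 3 of the 6 arrays and were tested, among 19613 tested probe sets in all.

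The Lower-SP and the Upper-SP cells both came from 10-week-old male C57Bl/6 (CD45.1) mice and were sorted as Lineage-, Sca-1+ and c-Kit+ cells. They differed in where they lay in the side population, a flow cytometry gate for cells with strong efflux of a DNA-binding dye. Each fraction was measured on 3 arrays, 1 for each pool of mice, with pools sorted on separate days, a purity over 98% on reanalysis and 2 rounds of in vitro transcription before labelling. Because mice were pooled, the p-values measure the spread between pools and not between animals, and their precision is set by how few arrays there are.

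Between 19317 and 19666 probe sets lay above log2 4 on each array, and the correlation across probe sets ran between 0.952 and 0.991 for arrays of the same fraction and between 0.911 and 0.938 for arrays of different fractions. All 8 HSC marker genes were above this level, and 4 of their 12 probe sets were called lower in Lower-SP. Of 12 neutrophil marker genes, 8 were tested with 1 probe set each, of which 4 were called higher and 1 lower. Mpo, Elane, Ctsg and Mmp8 did not reach the level for testing. Of these, Mmp8 lay above log2 4 only on Lower-SP replicates 1 and 2 (4.7 and 4.8). Mpo did so only on Lower-SP replicate 1 (4.2), and Elane and Ctsg on no array. The summed neutrophil signal (log2) was 14.27, 13.78 and 11.86 on Lower-SP replicates 1, 2 and 3, against 12.07 to 12.32 on the Upper-SP arrays. Lower-SP replicates 1 and 2 therefore stood apart from the other 4 arrays on this sum, and each main count is also given without them. The sum on the other 4 arrays was mostly Prtn3, the gene called lower (11.42 on Lower-SP replicate 3, 11.99 to 12.12 in Upper-SP). For S100a8 and S100a9, both called higher, Lower-SP replicate 3 also lay above every Upper-SP array (9.16 against at most 7.87, and 7.38 against at most 7.02). The same held for Chil3 and Lcn2, the other genes called higher. These entered the test through the Lower-SP arrays alone, so that order was built into their selection. For Ngp, Camp and Ltf, Lower-SP replicate 3 lay within the Upper-SP range. Leaving out replicates 1 and 2 therefore does not remove all of this difference. Of mature B and plasma cell markers, 3 genes were tested and did not pass, and the T and NK cell genes (5) and the annotated erythroid genes (3) did not reach the level for testing.

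Splicing removes introns from precursor messenger RNA in the spliceosome, a machine built anew on each intron from small nuclear ribonucleoproteins (snRNPs) and many further proteins. SR proteins bind exon sequences and recruit this machinery, while hnRNPs coat nascent transcripts and often act against SR proteins, so the balance between them sets which exons are kept. In blood cells the splicing factors SF3B1, SRSF2 and U2AF1 are known as frequent targets of mutation in human myelodysplastic syndromes, and many SR protein and hnRNP genes control their own messenger RNA through alternative exons and retained introns.

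The promoters of 4 genes are printed first because these genes had at least 3 probe sets called in 1 direction, making up no fewer than the uncalled ones, and none called in the other direction. This choice was made after the values were seen. Srsf6 and Prpf19 were the genes called lower in Lower-SP, and Rbm39 and Rbm5 those called higher. Each stretch runs from 250 bases before to 50 bases after the RefSeq start, 5′ to 3′ on the gene's strand, with the upstream start taken for Rbm39 and Prpf19, which have 2 starts each. The build is GRCm38.p6. The Srsf6 promoter lies at chr2:162931258-162931557 on the plus strand, that of Prpf19 at chr19:10894981-10895280 on the plus strand, that of Rbm39 at chr2:156180189-156180488 on the minus strand and that of Rbm5 at chr9:107770953-107771252 on the minus strand. Capitals mark matches, on either strand, to the GC box GGGCGG, the CCAAT box CCAAT and the ETS motif CCGGAAG.
Srsf6: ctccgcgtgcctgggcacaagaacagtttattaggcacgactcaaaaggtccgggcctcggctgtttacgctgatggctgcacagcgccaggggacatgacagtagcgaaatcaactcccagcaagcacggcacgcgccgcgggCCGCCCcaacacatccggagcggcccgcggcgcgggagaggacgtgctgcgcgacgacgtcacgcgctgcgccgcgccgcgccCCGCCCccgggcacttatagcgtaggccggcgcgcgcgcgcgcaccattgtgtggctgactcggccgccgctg
Prpf19: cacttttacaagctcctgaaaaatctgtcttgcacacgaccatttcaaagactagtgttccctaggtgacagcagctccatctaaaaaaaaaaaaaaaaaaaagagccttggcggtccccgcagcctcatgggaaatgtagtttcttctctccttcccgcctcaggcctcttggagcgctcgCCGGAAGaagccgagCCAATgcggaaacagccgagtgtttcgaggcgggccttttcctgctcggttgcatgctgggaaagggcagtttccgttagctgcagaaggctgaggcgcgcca
Rbm39: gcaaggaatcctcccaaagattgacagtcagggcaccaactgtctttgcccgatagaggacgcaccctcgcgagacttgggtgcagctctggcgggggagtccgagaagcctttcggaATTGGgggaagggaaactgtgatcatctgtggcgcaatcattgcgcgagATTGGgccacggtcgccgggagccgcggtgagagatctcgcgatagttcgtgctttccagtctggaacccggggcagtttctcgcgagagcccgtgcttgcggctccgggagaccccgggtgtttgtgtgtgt
Rbm5: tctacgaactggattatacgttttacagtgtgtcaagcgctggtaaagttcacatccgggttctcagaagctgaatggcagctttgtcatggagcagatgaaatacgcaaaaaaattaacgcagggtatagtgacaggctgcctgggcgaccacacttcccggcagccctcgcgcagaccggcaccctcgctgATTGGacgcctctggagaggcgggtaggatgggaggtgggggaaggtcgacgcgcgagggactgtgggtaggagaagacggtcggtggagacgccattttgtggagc
Srsf6 held 2 GC boxes and the highest GC content of the 4 promoters (70.0%), while Rbm39 held 2 CCAAT boxes, Rbm5 held 1 CCAAT box, and Prpf19 held 1 CCAAT box and 1 ETS motif. No capitals mark an E-box (CACGTG) or a TATA box (TATAAA), which had no match in these windows; no searched motif overlapped another. Of 32851 RefSeq mouse promoters of this length, 35.7% held a GC box, 37.4% a CCAAT box, 8.9% an ETS motif, 7.2% an E-box and 13.6% a TATA box. Of the 95 promoters of the splicing factor genes, from 76 of the 88 tested genes, 61.1% held a GC box, 49.5% a CCAAT box, 30.5% an ETS motif, 11.6% an E-box and 8.4% a TATA box. These promoters were also richer in GC (a median of 60.7%, against 52.7% for all promoters), and the shares were not matched for it. Nor were they matched for expression, as the member promoters are of tested genes and the full set is of all genes. A match of these letters is a description and not a binding site.

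Lower-SP and Upper-SP cells differed at 56 of the 219 splicing factor probe sets: 21 (9.59%) were called higher and 35 (16%) lower in Lower-SP, and 163 did not pass an adjusted p of 0.05 in limma. Across all tested probe sets 28.1% were called, 10.7% higher and 17.5% lower, so the splicing factors as a list moved about as often as the array did. Their median log2 difference (all differences here are Lower-SP minus Upper-SP) was -0.09, against -0.14 for all tested probe sets. The fractions did not overlap for 99 members (45.2%), 37 with Lower-SP higher and 62 with it lower, against 46.1% of all tested probe sets (18.2% higher and 27.9% lower). Cyclic loess scaling moved the median of all probe sets by 0.10 and turned the members' median to 0.03, with 25 members higher and 21 lower (54.3% of the calls higher, against 37.5% on the deposited values and 51.5% for all probe sets under the same scaling). In sorted bulk samples, fewer cells of a type and less RNA per cell cannot be told apart.

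Leaving out 1 array lowered the number of calls over the whole array and among the members, unless that array was a replicate 3. Without Lower-SP replicate 3, 22 members were called higher and 35 lower (10% and 16%, against 12.5% and 20.1% of all tested probe sets). Without Upper-SP replicate 3 the counts were 24 and 40 (11% and 18.3%, against 10.5% and 19%). Of the 56 calls, 21 held in each of the 6 fits that left out 1 array. Without Upper-SP replicate 1, 10 members were called higher and 11 lower (4.57% and 5.02%, against 4.51% and 3.98% of all tested probe sets), and without Upper-SP replicate 2, 11 higher and 18 lower (5.02% and 8.22%, against 6.19% and 7.18%). Without Lower-SP replicate 2 the counts were 13 higher and 18 lower (5.94% and 8.22%, against 7.18% and 8.7%). With Lower-SP replicates 1 and 2 both left out, 10 members were called higher and 13 lower (4.57% and 5.94%, against 6.07% and 7.77%), and 16 of the 56 calls held; the remaining Lower-SP array is then assumed to vary like the Upper-SP arrays.

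**Figure D1:**
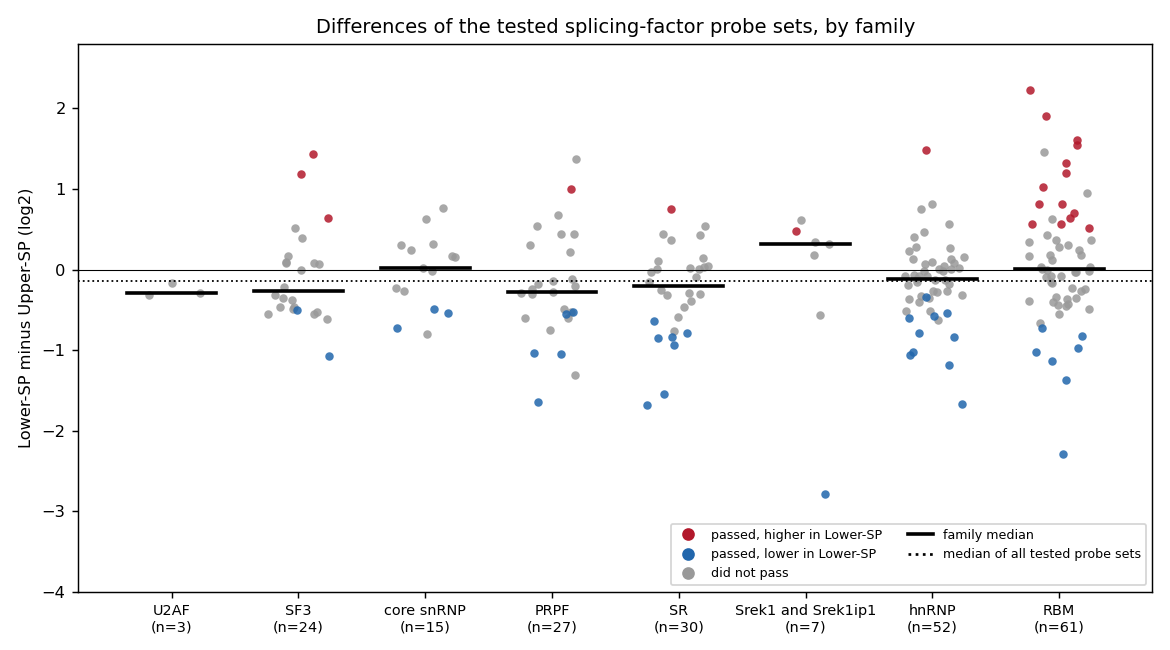
Difference between Lower-SP and Upper-SP (log2, vertical axis) for each of the 219 tested splicing factor probe sets, by family; each point is 1 probe set, coloured by whether it passed limma's adjusted p of 0.05 and in which direction. The RBM proteins hold 14 of the 21 probe sets called higher (23% of their 61), of which 4 are of genes other than Rbm39 and Rbm5. In the SR and hnRNP families 7 (23.3%) and 10 (19.2%) probe sets were called lower and 1 each (3.33% and 1.92%) higher. Over all tested probe sets 10.7% were called higher and 17.5% lower.

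The first proteins to mark an intron's end are the U2AF subunits, which read the polypyrimidine tract and the AG at the 3′ splice site. None of their 3 probe sets passed in limma, and 0 had an unadjusted p under 0.05. U2af2, the subunit that binds the tract, averaged 10.25 ± 0.20 in Lower-SP and 10.56 ± 0.12 in Upper-SP (SD, n = 3 each), a difference of -0.32 with an adjusted p of 0.15. U2af1, the subunit that reads the AG, averaged 10.45 ± 0.21 in Lower-SP and 10.61 ± 0.14 in Upper-SP, with overlapping arrays and an adjusted p of 0.45.

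The SF3 proteins belong to the U2 snRNP and hold it on the branch point. Of their 24 probe sets, 3 (12.5%) were called higher and 2 (8.33%) lower, and the median difference was -0.27. Over all tested probe sets the shares were 10.7% and 17.5%, with a median of -0.14. Sf3b2, a subunit that contacts the RNA near the branch point, was called in both directions by different probe sets. Probe set 1429362_a_at gave 12.83, 12.55 and 12.77 on the Lower-SP arrays, against 11.28, 10.72 and 11.85 on the Upper-SP arrays. The arrays of the fractions did not overlap, and the signal was 2.70-fold higher in Lower-SP (adjusted p = 0.0078; 0.075 with Lower-SP replicates 1 and 2 both left out, where the difference was 1.49, against 1.43). Probe set 1433461_at of the same gene gave 10.40, 10.30 and 10.20 on the Lower-SP arrays, against 10.93, 10.94 and 10.55 on the Upper-SP arrays. Here Lower-SP was lower on every array (difference -0.51, adjusted p = 0.041). The call was lost without any 1 array other than Upper-SP replicate 3 (adjusted p of up to 0.158, without Upper-SP replicate 1). It was also lost under quantile normalization (0.108), median centring (0.0611) and cyclic loess (0.134). The third called probe set of Sf3b2, 1456040_at, averaged 7.35 ± 0.24 in Lower-SP and 6.17 ± 0.22 in Upper-SP, a rise of 1.18 (adjusted p = 0.011) that missed the threshold without Upper-SP replicate 1 (0.0565). The other 3 tested probe sets of the gene ran between -0.52 and 0.17 and did not pass.

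Sf3b1, the scaffold of the complex, was measured by 4 probe sets, of which 1 passed. That probe set, 1440818_s_at, averaged 11.50 ± 0.22 in Lower-SP and 10.87 ± 0.33 in Upper-SP (difference 0.64, adjusted p = 0.043). Its call was lost without each Lower-SP array in turn and without Upper-SP replicate 1 or 2 (adjusted p of up to 0.144), and the other 3 probe sets had differences of -0.56, -0.01 and 0.09 that did not pass. Sf3b3, another subunit of the same complex, was read by 2 tested probe sets of opposite sign, of which 1415985_at passed. It gave 6.90, 6.86 and 7.59 on the Lower-SP arrays, against 8.34, 8.38 and 7.84 on the Upper-SP arrays. Lower-SP was 2.10-fold lower without overlap (adjusted p = 0.024), with Lower-SP replicate 3 and Upper-SP replicate 3 nearest to each other, and the call was lost without Lower-SP replicate 1 or 2 (0.072 and 0.0793) or Upper-SP replicate 1 or 2 (0.107 and 0.0889). The other, 1430075_at, averaged 8.43 ± 0.23 in Lower-SP and 7.92 ± 0.01 in Upper-SP, higher in Lower-SP without overlap but not passing (difference 0.51, adjusted p = 0.073).

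Core snRNP proteins form the ring around the small nuclear RNAs or sit on a single snRNP. Of their 15 probe sets 3 (20%) were called lower and 0 higher in limma, against 17.5% and 10.7% of all tested probe sets. Against a median difference of -0.14 for all tested probe sets, that of this family was 0.02. Before adjustment 4 lower and 1 higher had p under 0.05. Snrpb, a subunit of the Sm ring, was called lower by both of its tested probe sets, with differences of -0.73 ± 0.20 (1419260_a_at) and -0.49 ± 0.14 (1437193_s_at; SE). Snrpc, the U1 snRNP protein that steadies the contact with the 5′ splice site, gave 11.79, 11.78 and 12.14 on the Lower-SP arrays, against 12.64, 12.50 and 12.20 on the Upper-SP arrays. The fractions were separated by only the small gap between the arrays numbered 3 (1416197_at, difference -0.54, adjusted p = 0.034), and the other tested Snrpc probe set, 1444655_at, was higher in Lower-SP without overlap but did not pass (difference 0.32, adjusted p = 0.33). None of the 3 calls held without Lower-SP replicate 1 (adjusted p 0.0845 to 0.112), Upper-SP replicate 1 (0.123 to 0.146) or Upper-SP replicate 2 (0.103 to 0.132). None held under quantile normalization (0.0652 to 0.0992) or cyclic loess (0.0726 to 0.157), and 1 of the 3 held without Lower-SP replicate 2. Snrpn, the neuron-rich relative of Snrpb, was not tested and reached at most 2.49 on any array.

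The PRPF proteins assemble and remodel the spliceosome. Of 27 probe sets, 5 (18.5%) were called lower and 1 (3.7%) higher, with a median difference of -0.28. The share called lower was near that of all tested probe sets (17.5% lower and 10.7% higher, with a median of -0.14). Prpf8, which cradles the catalytic RNA, gave 10.34, 10.21 and 9.79 on the Lower-SP arrays, against 11.30, 11.40 and 10.78 on the Upper-SP arrays (1422453_at). All Lower-SP arrays lay below all Upper-SP arrays, by 2.07-fold on average (adjusted p = 0.012), and the call missed the threshold without Upper-SP replicate 1 (adjusted p = 0.0638). Prpf19, a ubiquitin ligase that gives its name to a complex active in spliceosome activation, was called lower by 3 of 4 tested probe sets. Probe set 1460633_at gave 4.06, 4.48 and 4.68 on the Lower-SP arrays, against 6.15, 6.26 and 5.73 on the Upper-SP arrays. It was 3.11-fold lower in Lower-SP without overlap (adjusted p = 0.0057), which held with each array left out (adjusted p of at most 0.0387) and was lost with Lower-SP replicates 1 and 2 both left out (0.0517; difference -1.36, against -1.64 with all arrays). Probe sets 1419839_x_at and 1449635_at fell by 0.55 and 0.53, and both calls were lost without Lower-SP replicate 1 or 2 or Upper-SP replicate 1 or 3. Both were also lost under quantile normalization (adjusted p of 0.0993 and 0.109), median centring (0.0564 and 0.0599) and cyclic loess (0.130 and 0.144). The fourth, 1456531_x_at, ran the other way without passing (difference 0.54, adjusted p = 0.093).

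Prpf4b, a kinase that phosphorylates spliceosome proteins, was the second gene called in both directions. Probe set 1425498_at averaged 7.14 ± 0.36 in Lower-SP and 6.14 ± 0.35 in Upper-SP (2.00-fold higher, adjusted p = 0.035). Probe set 1451909_a_at averaged 8.10 ± 0.49 in Lower-SP and 9.13 ± 0.16 in Upper-SP (2.04-fold lower, adjusted p = 0.024). Neither call held without Lower-SP replicate 1 (adjusted p = 0.0836 and 0.0557), Upper-SP replicate 1 (0.115 and 0.105) or Upper-SP replicate 2 (0.121 and 0.0738). The first was also lost without Lower-SP replicate 3 (0.0602), and the second without Lower-SP replicate 2 (0.0565). Prpf40b, a relative of a yeast U1 snRNP protein, showed a difference of -1.31 that did not pass (adjusted p = 0.12), with an SD of 1.29 among the Lower-SP arrays and 0.07 among the Upper-SP arrays.

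Of 30 SR protein probe sets 7 (23.3%) were called lower and 1 (3.33%) higher, with a median difference of -0.20; over all tested probe sets, which also were more often lower, the shares were 17.5% and 10.7%. Srsf6, an SR protein with a pair of RNA recognition motifs, supplied 4 of the 7, and all of its tested probe sets were called lower. Probe set 1416721_s_at gave 11.52, 11.24 and 11.61 on the Lower-SP arrays, against 13.13, 13.17 and 12.70 on the Upper-SP arrays. The fractions were separated by a gap of 1.09 log2 units, and the signal was 2.91-fold lower in Lower-SP (difference -1.54 ± 0.16 SE, adjusted p = 0.0018). Probe set 1416720_at gave 7.65, 6.93 and 6.98 on the Lower-SP arrays, against 8.86, 9.17 and 8.59 on the Upper-SP arrays, a 3.21-fold lower signal in Lower-SP (adjusted p = 0.0053). Probe set 1447898_s_at gave 11.20, 11.04 and 10.95 on the Lower-SP arrays, against 11.99, 12.22 and 11.79 on the Upper-SP arrays. It was 1.91-fold lower in Lower-SP (adjusted p = 0.0049), and these 3 calls held with each array left out, under each of the 3 scalings and with Lower-SP replicates 1 and 2 both left out (adjusted p of 0.0278, 0.0264 and 0.0377). The fourth, 1448454_at, fell by 0.64 (adjusted p = 0.045), with arrays nearly touching at 11.31 in Lower-SP and 11.35 in Upper-SP. It lost its call in every fit that left out 1 array other than Upper-SP replicate 3 (adjusted p of up to 0.151, without Upper-SP replicate 1). It also lost it under quantile normalization (0.0741), median centring (0.0564) and cyclic loess (0.110).

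**Figure D2:**
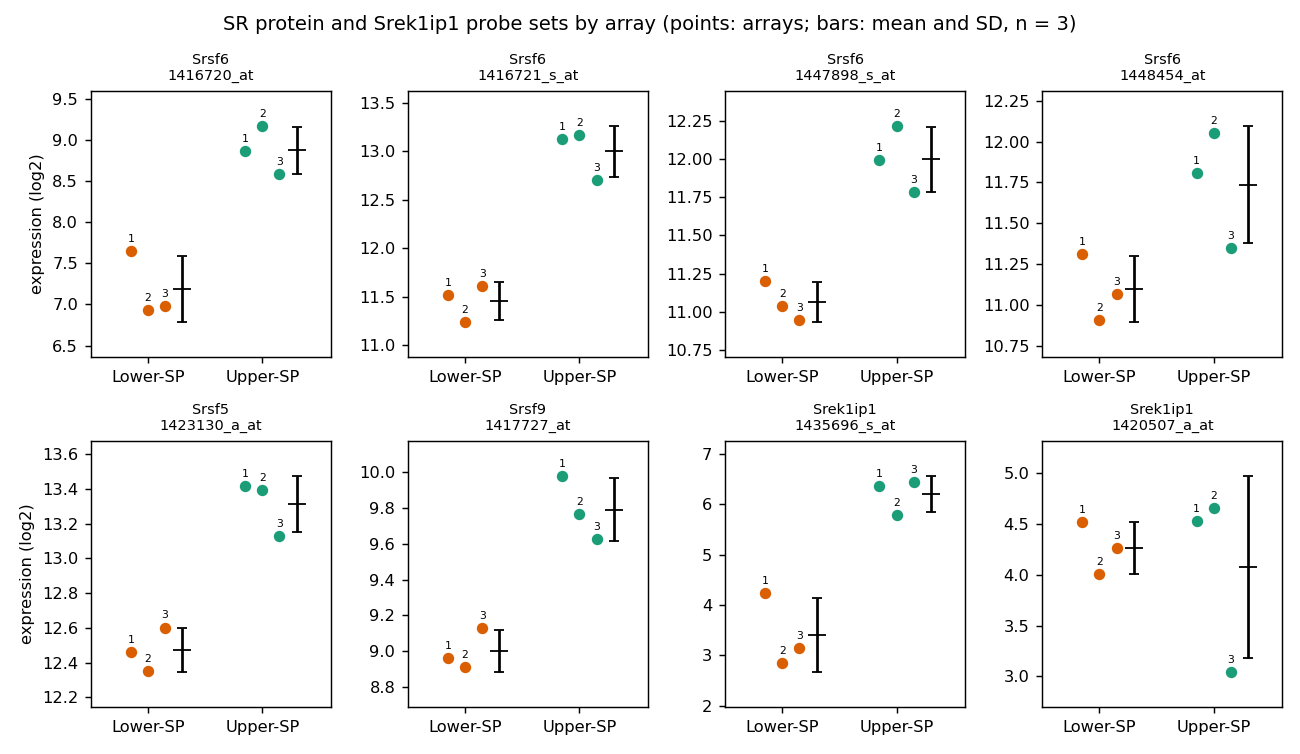
Log2 expression on each array (points, numbered by replicate) for the 4 tested probe sets of Srsf6, 1 of Srsf5, 1 of Srsf9 and the 2 of Srek1ip1, Lower-SP left and Upper-SP right, with the mean and SD beside them (n = 3). The Lower-SP points lie below the Upper-SP points in every panel but that of Srek1ip1 1420507_a_at, where they overlap; each panel has its own axis.

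Srsf5 and Srsf9 are named after their values were seen; both are SR proteins that bind exonic enhancers. Srsf5 (1423130_a_at) gave 12.46, 12.35 and 12.60 on the Lower-SP arrays, against 13.42, 13.40 and 13.13 on the Upper-SP arrays. It was 1.79-fold lower in Lower-SP without overlap (difference -0.84, adjusted p = 0.0038). With Lower-SP replicates 1 and 2 both left out the difference was -0.71 and the call was not kept. Srsf9 (1417727_at) gave 8.96, 8.91 and 9.13 on the Lower-SP arrays, against 9.98, 9.77 and 9.63 on the Upper-SP arrays, a 1.73-fold lower signal in Lower-SP (adjusted p = 0.012) that missed the threshold without Upper-SP replicate 1 (0.0659). Srsf2, a classic marker protein of nuclear speckles, was lower in 1 probe set, 1452439_s_at (difference -0.85, adjusted p = 0.022), a call lost without Lower-SP replicate 1 (0.0616), Upper-SP replicate 1 (0.0997) or Upper-SP replicate 3 (0.0534) and under cyclic loess (0.0536); its other 2 tested probe sets had differences of -0.25 and 0.42 that did not pass. Srsf3, the smallest SR protein, held the family's higher call: 1454993_a_at averaged 8.71 ± 0.37 in Lower-SP and 7.96 ± 0.03 in Upper-SP (adjusted p = 0.039). That call held only without Lower-SP replicate 2 (adjusted p = 0.026) among the 6 fits that left out 1 array, the others giving 0.0671 to 0.132, and the other 5 tested Srsf3 probe sets had differences between -0.32 and 0.37 that did not pass. Srsf1, the founding member of the family, had 6 tested probe sets with differences between -0.77 and 0.04, none of which passed.

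Srek1 is an SR-related protein, and Srek1ip1 is named for binding it. Srek1ip1 probe set 1435696_s_at gave 4.24, 2.85 and 3.14 on the Lower-SP arrays, against 6.37, 5.79 and 6.45 on the Upper-SP arrays. Lower-SP lay near or under log2 4, so with values under 4 set to 4 the signal was at least 4.35-fold lower in Lower-SP (adjusted p = 0.0039; measured means 3.41 and 6.20), and the call held with each array left out and with Lower-SP replicates 1 and 2 both left out (0.0197). The other probe set of Srek1ip1, 1420507_a_at, gave 4.52, 4.01 and 4.26 on the Lower-SP arrays, against 4.53, 4.66 and 3.05 on the Upper-SP arrays. These overlapped (difference 0.18, adjusted p = 0.77), so the 2 probe sets of Srek1ip1 differed from each other by 2.97 in their differences. Of the 5 probe sets of Srek1 itself, 1427136_s_at was called higher (9.86, 10.00 and 10.14 in Lower-SP, against 9.60, 9.47 and 9.51 in Upper-SP; adjusted p = 0.041). This call was lost with each single array left out (adjusted p of 0.0564 to 0.124). Probe set 1427134_at ran the other way without passing (difference -0.57, adjusted p = 0.051), and the other 3 had differences of 0.32 to 0.61 that did not pass.

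The hnRNP proteins, which package nascent transcripts, were the largest family after the RBM proteins, with 52 probe sets of 19 genes, of which 10 (19.2%) were called lower and 1 (1.92%) higher. The share called lower and the median of -0.12 were near those of all tested probe sets (17.5% and -0.14). The share called higher was below that of all tested probe sets (10.7%). Hnrnpa0, an RNA-binding protein of AU-rich elements, gave 9.49, 9.82 and 9.83 on the Lower-SP arrays, against 10.93, 11.08 and 10.71 on the Upper-SP arrays. Its single probe set (1428407_at) was 2.28-fold lower in Lower-SP without overlap (adjusted p = 0.0036). Hnrnpab (1448144_at), which binds single-stranded RNA and DNA, gave 7.73, 7.66 and 8.35 on the Lower-SP arrays, against 8.93, 9.19 and 8.81 on the Upper-SP arrays. It was 2.08-fold lower (adjusted p = 0.015), with Lower-SP replicate 3 highest in its fraction, and the call was lost without Lower-SP replicate 2 (0.0552), Upper-SP replicate 1 (0.0682) or Upper-SP replicate 2 (0.0633). It was the 1 called of 7 tested Hnrnpab probe sets; the other 6 had differences between -0.14 and 0.56, 3 of them above 0, and did not pass. Hnrnpc, which binds uridine tracts and guards against exons from Alu elements in human cells, gave 4.66, 2.97 and 4.17 in Lower-SP, against 5.90, 6.12 and 4.80 in Upper-SP for 1418693_at. This was at least 2.52-fold lower with values under 4 set to 4 (adjusted p = 0.041; measured means 3.93 and 5.61), and the call was lost without Lower-SP replicate 2 (0.108), Upper-SP replicate 1 (0.148) or Upper-SP replicate 2 (0.131). The other tested Hnrnpc probe set had a difference of -0.08 that did not pass.

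Hnrnpu, a scaffold protein of the nucleus that binds RNA and chromatin, was called lower by 2 of 5 probe sets. Probe set 1434390_at gave 8.45, 8.37 and 8.25 on the Lower-SP arrays, against 9.56, 9.44 and 9.12 on the Upper-SP arrays. It was 2.03-fold lower in Lower-SP (adjusted p = 0.0072), and held with each array left out and with Lower-SP replicates 1 and 2 both left out (0.0479). The other called probe set, 1423050_s_at, fell by 0.54 (adjusted p = 0.032) and held only without Lower-SP replicate 1 (0.026) among the 6 fits that left out 1 array. Its call was also lost under quantile normalization (0.093), median centring (0.0616) and cyclic loess (0.136). Hnrnpdl, a relative of Hnrnpd named after its values were seen, was called lower by 3 of 7 probe sets, with differences of -0.34, -0.79 and -0.84; these were lost without Upper-SP replicate 1 (adjusted p of 0.0669, 0.0649 and 0.0615), and the first also without Lower-SP replicate 2 (0.0589) or Upper-SP replicate 2 (0.0571) and under cyclic loess (0.146). Hnrnpa1, a main antagonist of SR proteins, was lower in 1455305_x_at (difference -0.58, adjusted p = 0.020) and did not pass in 1436549_a_at (-0.13, adjusted p = 0.44). The call of 1455305_x_at was lost without Lower-SP replicate 2 (0.0658), Upper-SP replicate 1 (0.0514) or Upper-SP replicate 2 (0.0756). It was also lost under quantile normalization (0.0528) and cyclic loess (0.0726). The 3 tested probe sets of Hnrnpk and the 4 of Hnrnpa2b1 had differences between -0.32 and 0.28, and none passed.

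Hnrnpr, a relative of Syncrip that binds messenger RNA, held the only hnRNP probe set called higher. Probe set 1452030_a_at gave 8.54, 8.24 and 8.18 on the Lower-SP arrays, against 6.81, 6.81 and 6.89 on the Upper-SP arrays. The fractions were far apart relative to their spread (2.79-fold higher in Lower-SP, adjusted p = 0.0034), and the call held with each array left out and with Lower-SP replicates 1 and 2 both left out (0.0323). The other 3 tested probe sets of Hnrnpr did not pass, and the lowest difference among them was -0.52.

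The RBM proteins share an RNA recognition motif and otherwise have varied roles. They held 14 of the 21 members called higher, against 7 called lower, among 61 probe sets (23% and 11.5%, against 10.7% and 17.5% of all tested probe sets) with a median difference of 0.01. Of the 14, 10 came from Rbm39 and Rbm5, and the other 24 genes gave 4 higher and 7 lower among 44 probe sets (9.09% and 15.9%), near the shares of the whole array. Probe sets of 1 gene share their target and are not independent measurements.

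Rbm39, a U2AF-like splicing factor known as the protein that sulfonamide drugs such as indisulam send for degradation, was measured by 12 probe sets, the most of any member, and 6 were called higher. Probe set 1443988_at gave 9.44, 9.32 and 9.34 on the Lower-SP arrays, against 7.69, 7.68 and 7.91 on the Upper-SP arrays. This was a 3.05-fold higher signal in Lower-SP (difference 1.61 ± 0.16 SE, adjusted p = 0.0018), with an SD of 0.07 among the Lower-SP arrays, and it held with each array left out and with Lower-SP replicates 1 and 2 both left out (0.0248). Probe set 1438420_at gave 12.62, 12.54 and 12.65 on the Lower-SP arrays, against 11.89, 12.07 and 12.17 on the Upper-SP arrays. Its fractions did not overlap either, with a smaller rise of 0.56 (adjusted p = 0.0094). The other 4 called probe sets rose by 0.52, 0.57, 0.81 and 1.02, of which the rise of 0.81 (1442745_x_at) held with each array left out. The rises of 0.52, 0.57 and 1.02 (1442744_at, 1446148_x_at and 1438398_at) lost their calls without Upper-SP replicate 1 (adjusted p = 0.0888, 0.123 and 0.101), Upper-SP replicate 2 (0.0802, 0.0931 and 0.0552) or Lower-SP replicate 2 (0.0694, 0.0948 and 0.0743); 1446148_x_at also without Lower-SP replicate 3 (0.0553), and 1438398_at also without Lower-SP replicate 1 (0.0623). Of the 6 that did not pass, 5 had differences between 0.03 and 1.46 and 1 a difference of -0.24 (1426671_a_at, 9.53, 9.67 and 9.44 in Lower-SP, against 9.66, 10.11 and 9.59 in Upper-SP). With Lower-SP replicates 1 and 2 both left out, 1443988_at alone of the 6 called probe sets kept its call.

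Rbm5, known for its part in the splicing of apoptosis genes and as a candidate tumour suppressor in human lung, was called higher by 4 of 5 probe sets. Probe set 1441319_at gave 9.73, 9.92 and 10.07 on the Lower-SP arrays, against 7.56, 7.26 and 8.20 on the Upper-SP arrays. The 4.69-fold higher signal in Lower-SP was the largest rise of any member that passed (difference 2.23 ± 0.26 SE, adjusted p = 0.0024), and it held with each array left out and with Lower-SP replicates 1 and 2 both left out (0.0294). Probe set 1438069_a_at gave 13.24, 13.12 and 13.42 on the Lower-SP arrays, against 11.99, 11.69 and 12.50 on the Upper-SP arrays, 2.30-fold higher in Lower-SP (adjusted p = 0.0062; 0.051 with Lower-SP replicates 1 and 2 both left out, where the difference was 1.36, against 1.20). Upper-SP replicate 3 stood highest in its fraction in both. The remaining called probe sets, 1452187_at and 1456262_at, rose by 0.81 and 0.64 and lost their calls without Lower-SP replicate 2 (adjusted p = 0.0537 and 0.0543), Upper-SP replicate 1 (0.0702 and 0.0763) or Upper-SP replicate 2 (0.0714 and 0.0745), and 1452187_at also without Lower-SP replicate 1 (0.0679). The fifth, 1452186_at, gave 11.69, 11.79 and 11.98 on the Lower-SP arrays, against 12.31, 12.35 and 11.88 on the Upper-SP arrays. Its arrays overlapped, and its difference of -0.36 did not pass (adjusted p = 0.12).

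**Figure D3:**
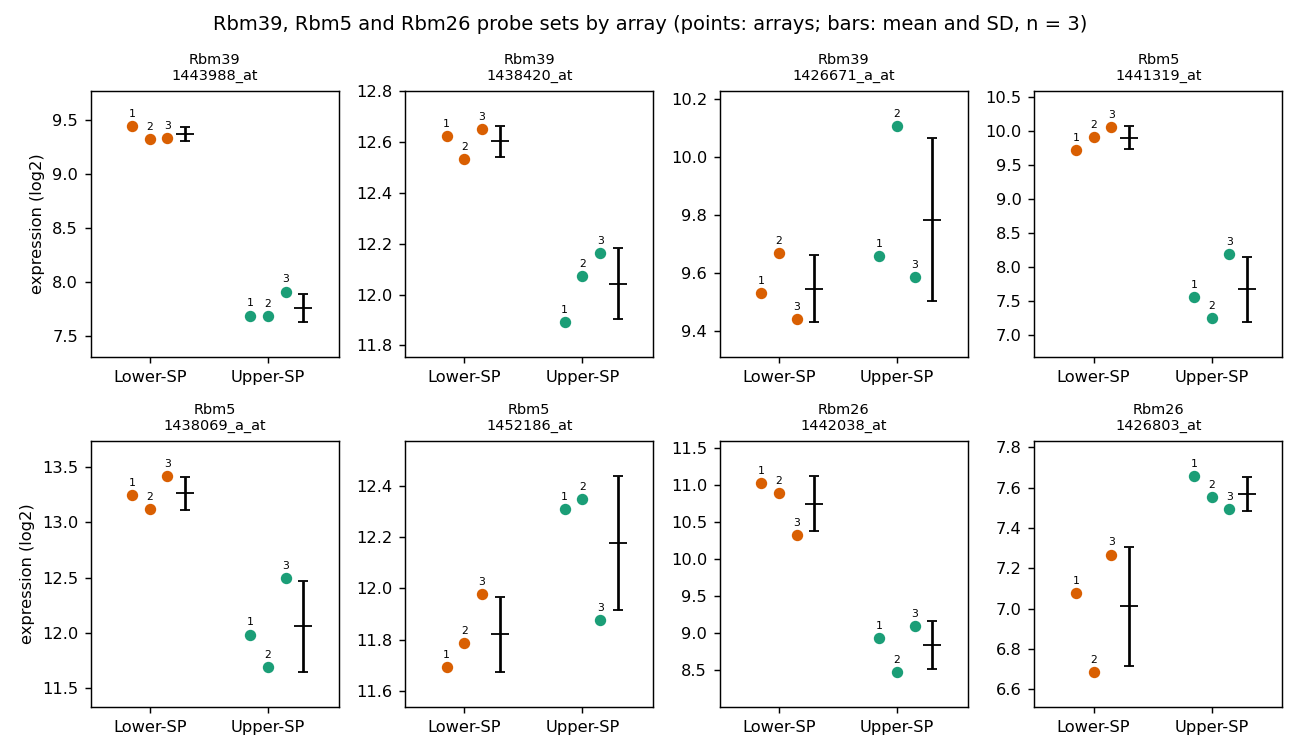
Log2 expression on each array (points, numbered by replicate) for 3 probe sets of Rbm39, 3 of Rbm5 and 2 of Rbm26, Lower-SP left and Upper-SP right, with the mean and SD beside them (n = 3); each panel has its own axis. Rbm39 1443988_at, Rbm5 1441319_at and Rbm26 1442038_at are higher in Lower-SP, while Rbm39 1426671_a_at, Rbm5 1452186_at and Rbm26 1426803_at have differences below 0 that did not pass.

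Rbm26 and its relative Rbm27, which take part in nuclear RNA decay, and Rbm25, which is known for regulating the splicing of the apoptosis gene Bcl-x, each had 1 probe set called higher; Rbm27 and Rbm25 are named after their values were seen. Rbm26 (1442038_at) gave 11.04, 10.89 and 10.33 on the Lower-SP arrays, against 8.94, 8.48 and 9.10 on the Upper-SP arrays. It was 3.76-fold higher in Lower-SP (adjusted p = 0.0031), while the 3 other tested probe sets of Rbm26 had differences of 0.63, -0.16 and -0.56 that did not pass. Rbm27 (1456058_at) averaged 7.45 ± 0.55 in Lower-SP and 5.90 ± 0.21 in Upper-SP (2.92-fold higher, adjusted p = 0.011), and a second Rbm27 probe set had a difference of -0.39 that did not pass. Rbm25 (1437862_at) averaged 9.28 ± 0.30 in Lower-SP and 7.95 ± 0.22 in Upper-SP (2.51-fold higher, adjusted p = 0.0059), with 3 other probe sets between -0.43 and 0.18 that did not pass. The calls of these 3 probe sets held with each array left out, and with Lower-SP replicates 1 and 2 both left out the adjusted p was 0.0383 for Rbm26, 0.0237 for Rbm27 and 0.0672 for Rbm25.

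Rbm14, a paraspeckle protein and transcriptional coactivator, was the third gene called in both directions. Probe set 1450569_a_at gave 3.29, 2.39 and 2.54 on the Lower-SP arrays, against 5.23, 5.30 and 4.57 on the Upper-SP arrays. It entered the test through the Upper-SP arrays alone, so a difference was built into its selection, and it was at least 2.04-fold lower in Lower-SP with values under 4 set to 4 (adjusted p = 0.0036; measured means 2.74 and 5.03). A second probe set, 1436979_x_at, averaged 10.60 ± 0.20 in Lower-SP and 11.32 ± 0.34 in Upper-SP (adjusted p = 0.028). This call was lost without Lower-SP replicate 1 (0.0734), Lower-SP replicate 3 (0.0536), Upper-SP replicate 1 (0.118) or Upper-SP replicate 2 (0.0987). It was also lost under quantile normalization (0.0518) and cyclic loess (0.0714). Probe set 1452003_at ran the other way, with 6.22, 6.11 and 6.06 in Lower-SP, against 5.63, 5.21 and 5.43 in Upper-SP (difference 0.70, adjusted p = 0.048), and it held only without Lower-SP replicate 3 (0.0463) among the fits that left out 1 array. The differences of the 5 tested Rbm14 probe sets spanned 2.997, the widest range of any member gene.

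Rbm33 (1435391_at) gave 6.67, 6.71 and 7.12 on the Lower-SP arrays, against 8.55, 8.12 and 7.95 on the Upper-SP arrays, and was 2.59-fold lower in Lower-SP (adjusted p = 0.0073). Rbm18 (1458182_at) gave 7.78, 7.56 and 7.64 on the Lower-SP arrays, against 8.84, 8.59 and 8.97 on the Upper-SP arrays, and was 2.20-fold lower (adjusted p = 0.0058). Neither of these probe sets overlapped between the fractions, and both calls held with each array left out; with Lower-SP replicates 1 and 2 both left out the adjusted p was 0.0755 for Rbm33 and 0.0436 for Rbm18. The other tested probe set of each gene did not follow: 1420608_at of Rbm18 averaged 7.41 ± 0.29 in Lower-SP and 6.46 ± 0.59 in Upper-SP without overlap (difference 0.95, adjusted p = 0.067), and 1455430_at of Rbm33 had a difference of -0.02 (adjusted p = 0.96). Rbm12b1, Rbm28 and Rbm43, named after their values were seen, each had 1 probe set called lower, with differences of -1.03, -0.97 and -0.83, that of Rbm12b1 through the Upper-SP arrays alone. A second Rbm28 probe set had a difference of 0.28 that did not pass. Those 3 calls were lost without Lower-SP replicate 2 (adjusted p = 0.0733, 0.066 and 0.0962), Upper-SP replicate 1 (0.0912, 0.101 and 0.132) or Upper-SP replicate 2 (0.0729, 0.0574 and 0.11), and that of Rbm43 also without Lower-SP replicate 1 (0.0782) and under cyclic loess (0.0565). Rbm15, part of the complex that writes m6A on RNA, averaged 8.62 ± 0.11 in Lower-SP and 8.85 ± 0.08 in Upper-SP and did not pass (adjusted p = 0.29).

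Probe sets of 1 splicing factor gene could differ in sign. More than 1 probe set was tested for 58 genes, and 41 of them (70.7%) had differences of both signs, passed or not, against 47.9% of all genes with more than 1 tested probe set; the member genes had a mean of 3.26 tested probe sets, against 2.62 over all such genes, and the shares were not matched for this. The median range of differences within a gene was 0.83 for the members and 0.73 for all. Called in opposite directions were 3 of the 58 (Sf3b2, Prpf4b and Rbm14), near the share over all such genes (3.51%). Of all tested members, 12 of the 88 genes had at least 1 probe set called higher (background 11.9%) and 25 at least 1 called lower (background 26.6%), while 54 had none. The 4 genes whose promoters are printed were 4 of the 26 member genes with at least 3 tested probe sets; 6.55% of all such genes met the same rule. Which exon, intron or transcript form a probe set reads is not analysed here.

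**Figure D4:**
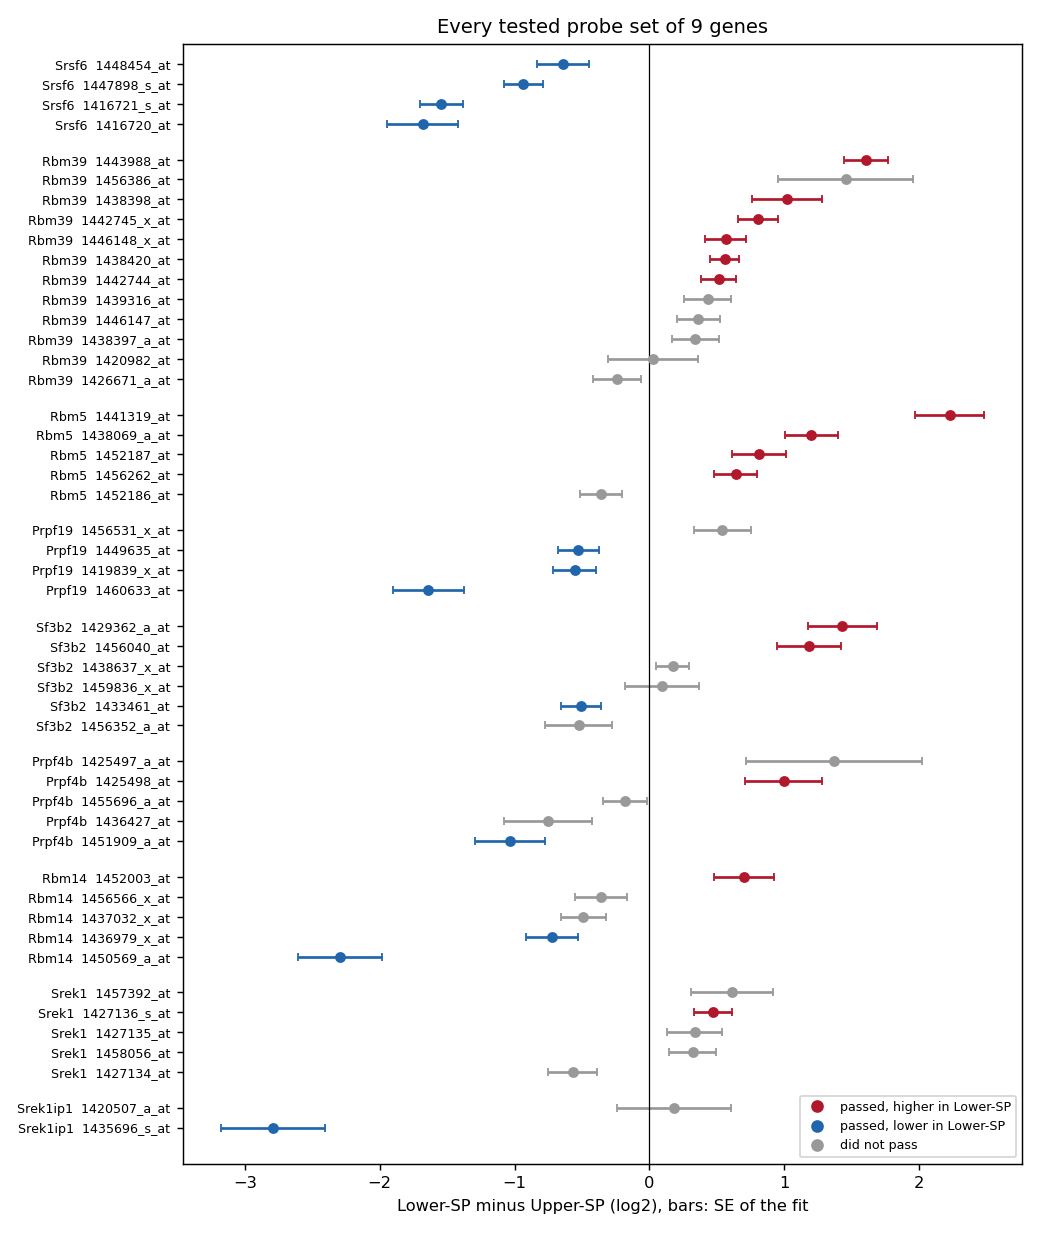
Difference between Lower-SP and Upper-SP (log2, horizontal axis; bars are the SE of the limma fit) for every tested probe set of 9 splicing factor genes, coloured by whether it passed and in which direction. All 4 probe sets of Srsf6 lie below 0 and 11 of the 12 of Rbm39 above 0, while Sf3b2, Prpf4b and Rbm14 have called probe sets on both sides.

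Higher and lower calls were spread differently over the kinds of sequence that the probe sets are annotated to. Of the tested members 40 were annotated to a RefSeq mRNA, of which 9 were called lower and 0 higher in limma, with a median difference of -0.31; 13 lower and 1 higher had an unadjusted p under 0.05. The other 179 members held all 21 higher calls and 26 lower calls, with a median of -0.03. The array as a whole showed a like split: of all RefSeq mRNA probe sets 26.7% were called lower and 3.46% higher, and of the others 16% lower and 11.9% higher.

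Upper-SP replicate 3 was the array nearest to the other fraction over the whole array and likewise in most called members. It was the lowest Upper-SP array in 26 of the 35 members called lower (74.3%, against 69.5% of all probe sets called lower), and the highest Upper-SP array in 15 of the 21 called higher (71.4%, against 55%). Averaged over the 35 lower members, the log2 level was 8.99, 8.80 and 8.99 on the Lower-SP arrays, against 10.04, 10.02 and 9.73 on the Upper-SP arrays. Averaged over the 21 higher members, it was 10.02, 9.82 and 9.96 on the Lower-SP arrays, against 8.83, 8.73 and 9.04 on the Upper-SP arrays. These probe sets were chosen as called, so their averages are a description. The part of the high neutrophil signal of Lower-SP replicates 1 and 2 in the single calls was not tested beyond leaving those arrays out. For the neutrophil genes S100a8 and S100a9, Lower-SP replicate 3 also lay above every Upper-SP array. For Chil3 and Lcn2 that order was built into their selection.

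Under every fit that left out 1 array, under all 3 scalings and with Lower-SP replicates 1 and 2 both left out, 13 of the 56 calls held. They were 5 higher calls, of Rbm5 (1441319_at), Rbm26 (1442038_at), Rbm39 (1443988_at), Rbm27 (1456058_at) and Hnrnpr (1452030_a_at). They were also 8 lower calls, of Srek1ip1 (1435696_s_at), Rbm14 (1450569_a_at), 3 probe sets of Srsf6, Hnrnpa0, Rbm18 (1458182_at) and Hnrnpu (1434390_at); that of Rbm14 was tested through its Upper-SP arrays alone, and without it 7 lower calls remain. With both Lower-SP arrays left out 3 further calls held, of Prpf8 (adjusted p = 0.0407), Sf3b2 1456040_at (0.0465) and Srsf3 (0.043), and the other 40 were lost.

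The members that were not tested were mostly at background. Of the 57 untested probe sets, 45 were under log2 4 on every array and 12 were above it on 1 or 2 arrays, with a highest value of 5.74. The 12 genes with no tested probe set were Srsf12, Snrpn, Rbm11, Rbm20, Rbm24, Rbm3os, Rbm41, Rbm44, Rbm45, Rbm46, Rbm46os and Rbm47; Rbm20 is known as a splicing factor of heart muscle. Both Rbm3 probe sets carry a second symbol and were no members. Among the tested probe sets, 2 passed the level through the Upper-SP arrays alone (Rbm14 1450569_a_at and Rbm12b1) and 0 through the Lower-SP arrays alone, and without these 2 the counts were 21 higher and 33 lower among 217.

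Other genes of the splicing pathway, outside the families above, moved to a like extent. Of 117 listed genes 108 were annotated and 99 were tested, with 250 probe sets. Of these, 25 (10%) were called higher and 46 (18.4%) lower, against 10.7% and 17.5% of all tested probe sets. The median difference of this list was -0.15, against -0.14. The largest rise that passed was in Pnn, a speckle protein that interacts with SR proteins: 1423325_at gave 6.35, 5.97 and 4.73 on the Lower-SP arrays, against 3.20, 2.23 and 3.65 on the Upper-SP arrays (at least 3.21-fold higher with values under 4 set to 4, adjusted p = 0.0088; measured means 5.68 and 3.03). This probe set entered the test through the Lower-SP arrays alone, so a difference was built into its selection, and the other 2 tested Pnn probe sets had differences of 0.02 and 0.08 that did not pass. The largest fall was in Txnl4a, a U5 snRNP protein: 1433698_a_at gave 8.72, 8.53 and 8.51 on the Lower-SP arrays, against 10.40, 10.43 and 9.53 on the Upper-SP arrays (adjusted p = 0.0063). The Txnl4a arrays did not overlap between the fractions, while for Pnn the lack of overlap followed from its selection. Both calls were lost with Lower-SP replicates 1 and 2 both left out. The difference was then 1.71 for Pnn, against 2.66 with all arrays, and -1.61 for Txnl4a, against -1.53. Without Upper-SP replicate 1 this list held 10 higher and 16 lower calls, while 4.51% and 3.98% of all tested probe sets were called.

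**Figure D5:**
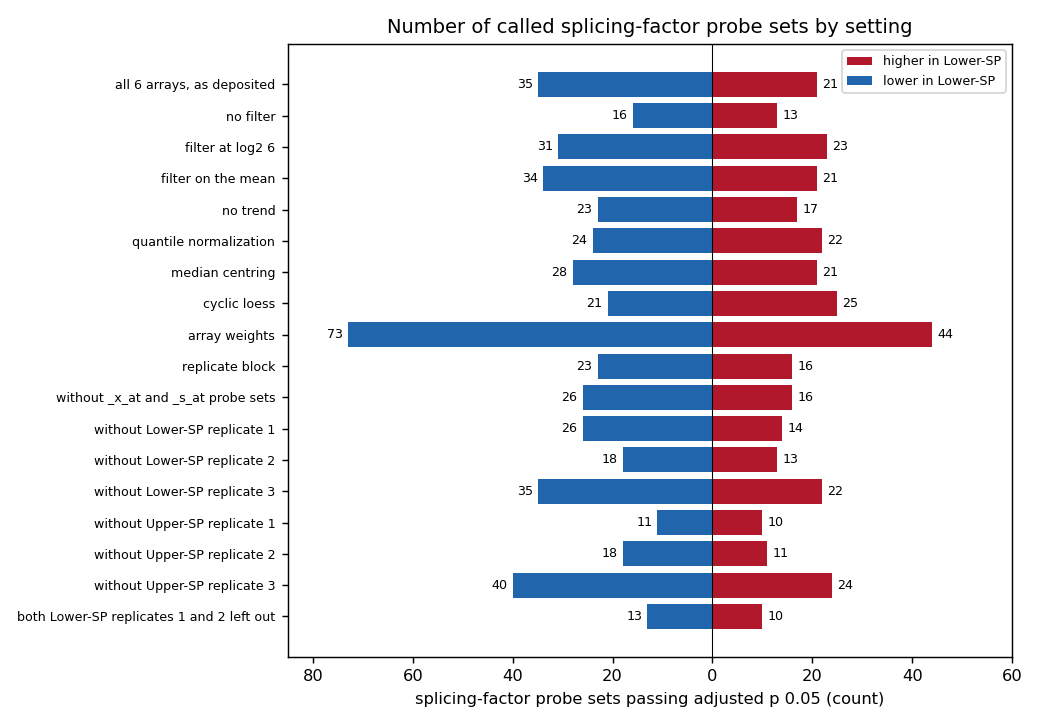
Number of splicing factor probe sets called higher (right) and lower (left) in Lower-SP under each setting of the fit. The counts run between 10 (higher) and 11 (lower) without Upper-SP replicate 1 and 44 and 73 with arrays weighted by their quality, around 21 and 35 with all 6 arrays as deposited.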

How the data were processed

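RNA of 6 samples was hybridised to Affymetrix mouse arrays. The authors deposited log2 expression values for 45101 probe sets; per the submitters' processing notes they used GCOS 1.0 and GCRMA, which corrects background by probe sequence, normalises arrays together and combines probes. Other parameters and a genome build are not given in the sources used here. Besides 64 control probe sets there were 45037, of which 34945 had 1 gene symbol, 932 several and 9160 none. Probe sets above log2 4 on at least 3 arrays (19613) were fitted in R 4.3.3 with limma 3.58.1 (lmFit, eBayes with trend, two-sided, 3 arrays against 3; residual df 4, prior df 3.8). P-values were adjusted by Benjamini-Hochberg over all of them, with a threshold of 0.05. Where a group's mean lay under 4, values under 4 were set to 4 and the fold given as a lower bound. The fit was tested on simulated data.

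The members and lists were chosen with earlier results of these data known. Named were, per family, up to 3 passing, non-overlapping probe sets per direction with the largest difference (or the 2 with the smallest p where none passed), genes called both ways, all probe sets of Srek1, Srek1ip1 and 15 further genes, and the largest rise and fall in the other splicing list; other names are marked in the text. Alternatives changed the filter, trend, scaling, array weights, replicate block, probe set type and arrays. Promoters are from RefSeq (GRCm38.p6). Probe sets with several symbols were left out.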

Additional observations from a re-analysis of the deposited data

How the results depend on the processing

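The direction of a called value did not turn in any of the 1777 values recomputed for the 107 probe sets named or called; 1476 kept their side of the threshold, 264 lost the call and 37 gained one. The counts moved more. With no filter on low values 2931 probe sets were called in all (5520 as reported), with 13 members higher (21 as reported) and 16 lower (35 as reported), and 13 higher (25 as reported) and 27 lower (46 as reported) in the other splicing list; 45037 probe sets were then tested. With array weights these counts were 10728, 44, 73, 52 and 92. With Lower-SP replicates 1 and 2 both left out they were 2715, 10, 13, 11 and 19. With single arrays left out they ran between 1666 and 6397 in all, 10 and 24 members higher, 11 and 40 members lower, and 10 and 32 higher and 16 and 56 lower in the other list. The members called lower also fell in number to 23 without the trend and to 21 under cyclic loess. The members' median difference of -0.09 was -0.0107 with no filter, -0.13 with a filter at log2 6, -0.0049 after quantile normalization, -0.0017 after centring, 0.0342 after cyclic loess, -0.15 with both Lower-SP replicates left out, and between -0.149 and -0.0655 with single arrays left out; the cause was not tested. Replicate numbers are shared between the fractions, but same-numbered arrays did not deviate together (r = -0.0513, -0.0294 and -0.0233 for numbers 1, 2 and 3). This cannot show whether same-numbered pools were sorted on the same day, which the labels do not say. With the replicate number as a block, 4180 probe sets were called in all, with 16 members higher and 23 lower. Probe sets near log2 4 are the ones whose differences the signal over background limits.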
